A study of Zea mays with 12 samples.

Results

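The 9 lipoxygenase genes described here were picked by their B73 version 4 gene IDs, out of 39324 IDs in the deposited gene table, and all 9 passed the filter on low counts that 22772 genes passed. They are LOX1 (Zm00001d042541), LOX2 (Zm00001d042540), LOX3 (Zm00001d033623), LOX4 (Zm00001d033624), LOX5 (Zm00001d013493), LOX6 (Zm00001d002000), LOX8 (Zm00001d003533, the gene tasselseed1), LOX9 (Zm00001d027893) and LOX10 (Zm00001d053675). The names come with the list of IDs. The deposited files hold IDs alone, and RefSeq (assembly Zm-B73-REFERENCE-NAM-5.0) lists all 9 symbols without tying them to these IDs. Its further family members lox7, lox11 and lox12 were not analysed here. The set was put together with the comparison of mutant and wild type already seen in these data, so values of that comparison are given as a description, with no p for single genes. Counts of calls from the fits to all genes stand only beside the share over all genes.

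Lipoxygenases add oxygen to polyunsaturated fatty acids such as linolenic acid and so open the oxylipin pathway of plants. Enzymes of the 13-LOX type act on carbon 13 of the fatty acid, mostly in plastids, and feed the synthesis of jasmonate, a wound and developmental hormone, and of green leaf volatiles. Enzymes of the 9-LOX type act on carbon 9 and feed less well known oxylipins with roles in defence. In maize LOX1 to LOX5 are counted as 9-LOX, although LOX1 makes both products in vitro, and LOX8, LOX9 and LOX10 as 13-LOX. LOX6 is a plastid enzyme that cleaves fatty acid hydroperoxides in place of making them, and is put in neither class here.

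Shoot apices of the maize inbred B104 were the source of RNA, dissected 7 days after seeds were set to germinate. Each apex held the shoot apical meristem, leaf primordia of plastochrons 0 to 5 (counted from the youngest outward) and leaf sheath. The 3 mutant samples were homozygous for CRISPR/Cas9 loss-of-function alleles of both TOO MANY LATERALS genes, tml1;tml2, which segregated independently from the transgene, and the 3 wild-type samples were segregating siblings from the same editing material. In both genotypes the labels number the samples 2, 3 and 4, and each was sequenced in 2 runs, which were summed. The labels name 3 individual apices in the extraction per genotype pool, so each sample may be 1 apex or a pool. Since tml1 and tml2 were not analysed here, genotypes are taken from the labels alone. For lack of gene names, markers of the dissected tissues were not examined either. Samples held 27213045 to 31980554 counts. On the first principal component of log2 CPM (counts per 1000000 counts), which held 46.0% of the variance, mutant 4 scored 116 and wild types 2 and 4 scored −84.0 and −64.5. Wild type 3 at 9.88 lay beyond mutant 2 at −3.21, so the genotypes were not fully parted.

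Among the 9 genes, LOX2, LOX6 and LOX10 were lower in all 3 mutant samples than in any wild-type sample, and LOX4 and LOX8 were higher. LOX10, the most abundant member, stood 2.61-fold lower in mean CPM in the mutant, and LOX4 3.18-fold higher. LOX1, LOX3, LOX5 and LOX9 had overlapping values. Both directions occurred within each class, with LOX2 lower and LOX4 higher among the 9-LOX genes, and LOX10 lower and LOX8 higher among the 13-LOX genes. For the 9-LOX class this rests on LOX4, whose counts may be mixed with those of related genes such as its neighbour LOX3. Genes without overlap between the genotypes thus numbered 5 of 9, where 19.3% of all tested genes had none. For the 2 genes entirely higher in the mutant the share over all tested genes was 10.3%, and for the 3 entirely lower it was 9.03%. Nothing is read from these counts, because the choice of the genes used the same comparison. In bulk tissue, fewer cells that make a transcript and less transcript per cell cannot be told apart.

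**Figure D1:**
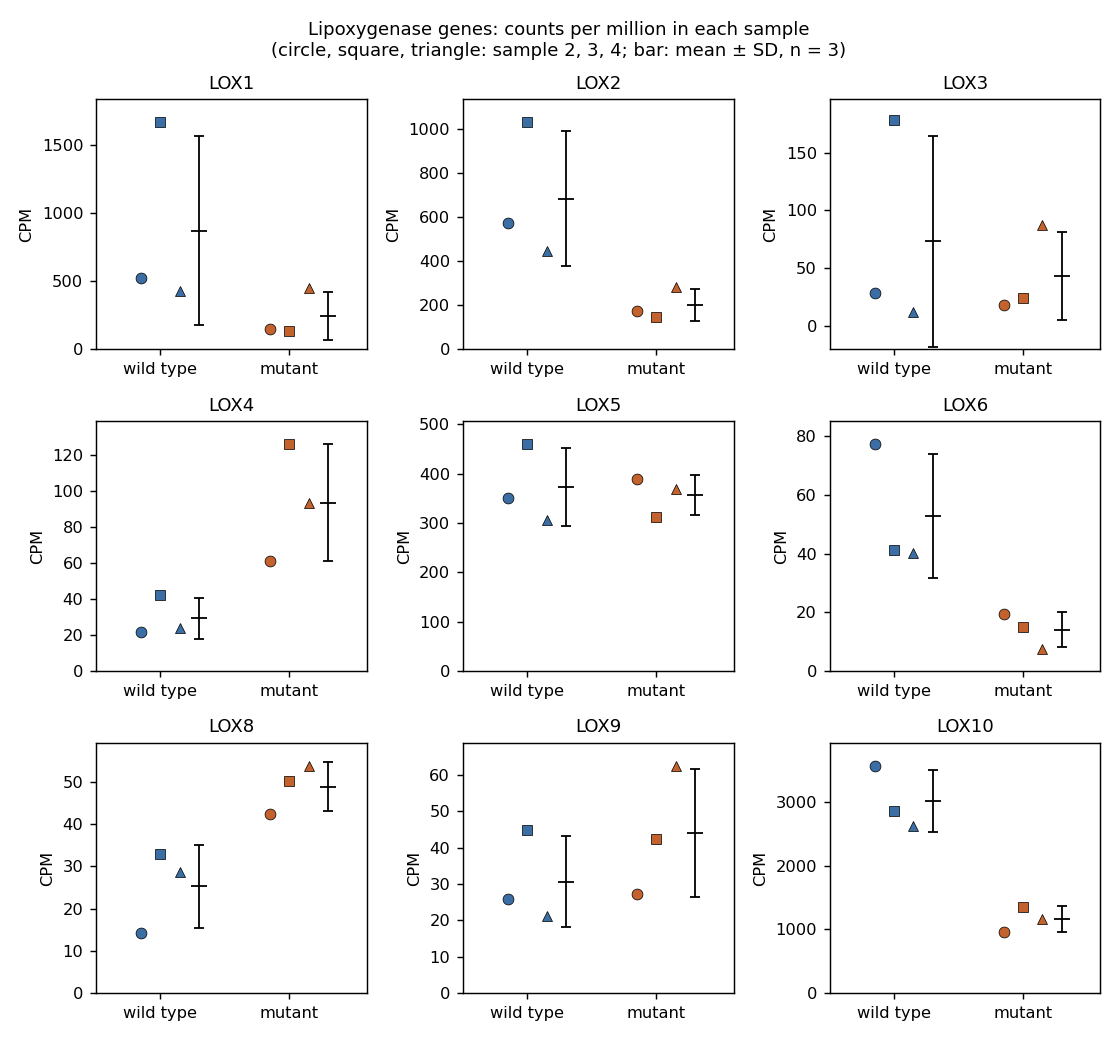
CPM of each lipoxygenase gene (vertical axis, from 0 except for LOX3, whose error bar runs below 0) in the 3 wild-type samples (blue) and 3 mutant samples (orange). Circles, squares and triangles are samples 2, 3 and 4, and black bars are the mean ± SD. The genotypes are apart in the panels of LOX2, LOX4, LOX6, LOX8 and LOX10, and the square of wild type 3 is the highest point for LOX1, LOX2, LOX3 and LOX5.

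The 13-LOX gene LOX10, known in maize for green leaf volatiles and wound jasmonate, was at 3575, 2868 and 2635 CPM in wild types 2, 3 and 4. The mutant samples were at 959, 1361 and 1163 CPM. Every mutant value lay far below the lowest wild-type value, and the spread within each genotype was narrow, at 16.2% of the mean in the wild type and 17.3% in the mutant. The means were 3026 ± 490 CPM and 1161 ± 201 CPM (SD, n = 3 each). In the edgeR fit the log2 fold change, mutant over wild type, was −1.38 (SE 0.25).

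LOX8 is the tasselseed1 gene, whose plastid 13-LOX supplies the jasmonate that halts pistil growth in the tassel. Its wild-type samples were at 14.2, 33.0 and 28.7 CPM and its mutant samples at 42.5, 50.3 and 53.8 CPM. The mutant values were all higher and closer to one another than the wild-type values, of which wild type 2 was the lowest. The means were 25.3 ± 9.86 CPM in the wild type and 48.9 ± 5.79 CPM in the mutant, and the log2 fold change was 0.95 (SE 0.31).

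LOX9, a further 13-LOX, was at 25.9, 44.9 and 21.1 CPM in the wild type and at 27.3, 42.3 and 62.5 CPM in the mutant. The genotypes overlapped, with wild type 3 above mutants 2 and 3. Its log2 fold change of 0.52 (SE 0.39) was in the same direction as that of LOX8. Without mutant 4 it was 0.18. LOX8 and LOX9 thus both had values above 0, where LOX10 was below 0.

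Of the 9-LOX genes, LOX1 and LOX2 are near-identical neighbours, with 0 annotated genes between them in RefSeq, so reads may be split wrongly between the copies. LOX2 was at 572, 1031 and 447 CPM in wild types 2, 3 and 4 and at 173, 147 and 283 CPM in the mutant samples. No mutant value reached the lowest wild-type value, and the log2 fold change was −1.77 (SE 0.40). LOX1 was at 523, 1668 and 424 CPM in the wild type and at 151, 132 and 447 CPM in the mutant. Here mutant 4 lay just above wild type 4, and wild type 3 was more than both other wild types together. The log2 fold change of LOX1 was −1.84 (SE 0.71), and it was −0.97 without wild type 3 and −2.62 without mutant 4.

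Summing both copies removes the split between them. LOX1 and LOX2 together were at 1095, 2699 and 871 CPM in the wild type and at 324, 279 and 730 CPM in the mutant. The sum did not overlap between genotypes and its mean was 3.50-fold lower in the mutant, a log2 ratio of −1.81. Without wild type 3 it was 2.21-fold lower, a log2 ratio of −1.15. These sums were chosen after the data were seen.

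LOX3 and LOX4 form the second pair of neighbours, again with 0 annotated genes between them in RefSeq. How alike LOX4 is in sequence to LOX3 or to other members was not examined. LOX3, whose loss in maize alters resistance to fungi and nematodes, was at 29.0, 178 and 12.3 CPM in the wild type and at 17.9, 24.3 and 87.0 CPM in the mutant. Wild type 3 and mutant 4 stood out in it, and the genotypes overlapped. Its log2 fold change of −0.76 (SE 1.05) became 1.05 without wild type 3, so that 1 sample set its sign.

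LOX4 was at 21.6, 42.4 and 24.2 CPM in wild types 2, 3 and 4 and at 61.1, 126 and 93.4 CPM in the mutant samples. All mutant values lay above all wild-type values. The means were 29.4 ± 11.3 CPM and 93.5 ± 32.5 CPM, and the log2 fold change was 1.67 (SE 0.36). Summed, LOX3 and LOX4 were at 50.6, 220 and 36.5 CPM in the wild type and at 79.1, 150 and 180 CPM in the mutant. That sum overlapped between the genotypes and its log2 ratio was 0.41. LOX4 may depend on the deposited assignment of reads to related genes and is reported as uncertain. Wild type 3 alone set this overlap. Without it the sum was 3.14-fold higher in the mutant, a log2 ratio of 1.65, with no overlap. LOX4 held 23.8% of the TPM of the pair in wild type 3 and 89.5% in mutant 3, the lowest and highest of the 6 samples.

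LOX5, a wound-responsive 9-LOX, varied least. It was at 351, 460 and 306 CPM in the wild type and at 390, 313 and 369 CPM in the mutant. The mutant values lay inside the range of the wild-type values. Its log2 fold change was −0.060 (SE 0.21), and the value was 0.11 on log2 TPM with either pseudocount, a scale on which the median of all genes was itself shifted by 0.13 to 0.14.

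LOX6, the atypical plastid member, was at 77.4, 41.3 and 40.3 CPM in the wild type and at 19.4, 15.1 and 7.61 CPM in the mutant. The genotypes were apart, wild type 2 being the highest and mutant 4 the lowest. The means were 53.0 ± 21.1 CPM and 14.0 ± 5.95 CPM, a 3.78-fold difference and a log2 fold change of −1.92 (SE 0.42).

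**Figure D2:**
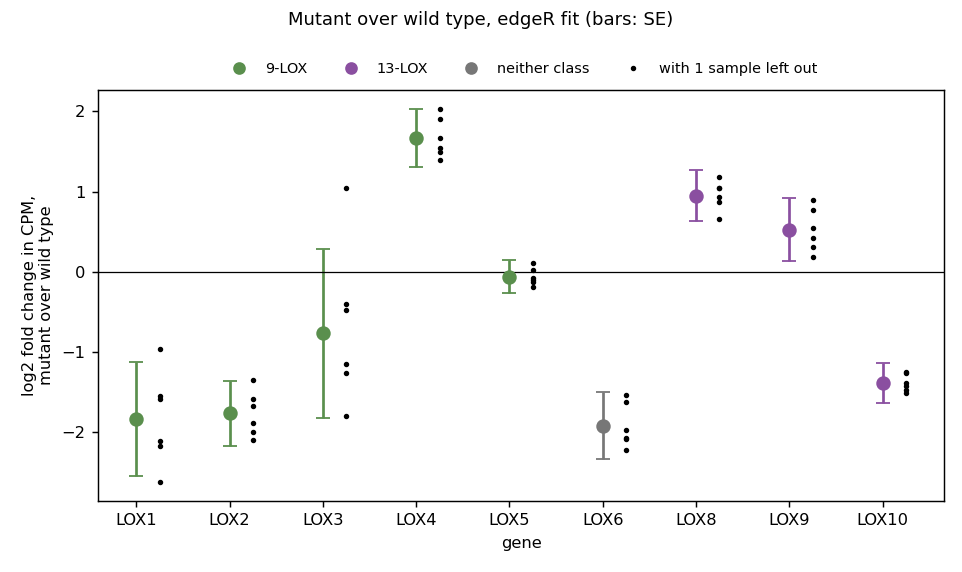
Log2 fold change of each gene in CPM, mutant over wild type, from the edgeR fit (large points, bars are SE, colours give the class), with the 6 values obtained when 1 sample is left out (small black points). The black points of LOX3 lie on both sides of 0, from −1.79 to 1.05, while those of LOX10 lie between −1.51 and −1.25.

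With 1 sample left out at a time, LOX2, LOX4, LOX6, LOX8 and LOX10 each kept the direction given above, which the lack of overlap already fixes. LOX10 moved least, and LOX6 ranged from −2.22 to −1.54. Over the 9 genes the median absolute log2 fold change was 1.38, and over all tested genes it was 0.30. The median signed value was −0.76 for the genes and 0.0047 for all tested genes, with 3 genes above 0 and 6 below. In edgeR's quasi-likelihood test, fitted to every gene, 0 of 9 were called at an adjusted p under 0.05, where 0% of all tested genes were. At an unadjusted p under 0.05 edgeR had 6 of 9, beside 12.2% of all tested genes. DESeq2 on the same 6 samples called 4 of 9, beside 2.36% of the genes it tested. These shares used the comparison by which the genes were picked and carry no weight for them.

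Several members varied widely among the 6 samples, also within a genotype. LOX3 had a coefficient of variation of 125% in the wild type and 88.6% in the mutant, and LOX1 had 79.3% and 72.7%. Over all 6 samples the highest exceeded the lowest by 1.50-fold for LOX5, 3.73-fold for LOX10, 12.6-fold for LOX1 and 14.4-fold for LOX3, in CPM. The median of this ratio was 5.84 over the 9 genes and 1.95 over all tested genes with counts in every sample. The ratio spans both genotypes and so contains the comparison by which the genes were picked. Nothing is read from these medians. Between the 2 runs of one sample LOX10 differed by at most 0.021 on the log2 scale and LOX1 by at most 0.074, well under their SDs of 0.24 and 1.02 among samples of one genotype. LOX4 had the largest run difference, 0.81 in wild type 4, above its own SD of 0.52 among samples. LOX6 came next with 0.49, below its SD of 0.62. edgeR's test of run 2 against run 1, with sample as a factor, called 0 of 9 genes and 0% of the 21381 genes it tested at an adjusted p under 0.05. At an unadjusted p under 0.05 it had 1 of 9, LOX6, beside 4.36% of all. limma-voom had 2 of 9 at an unadjusted p under 0.05, beside 1042 of all 21381 genes. At an adjusted p under 0.05 it had 0 of 9, beside 0 of all. LOX6 was 0.19 higher in run 2 on the log2 scale, with an unadjusted p of 0.018 by edgeR's test that did not pass adjustment.

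**Figure D3:**
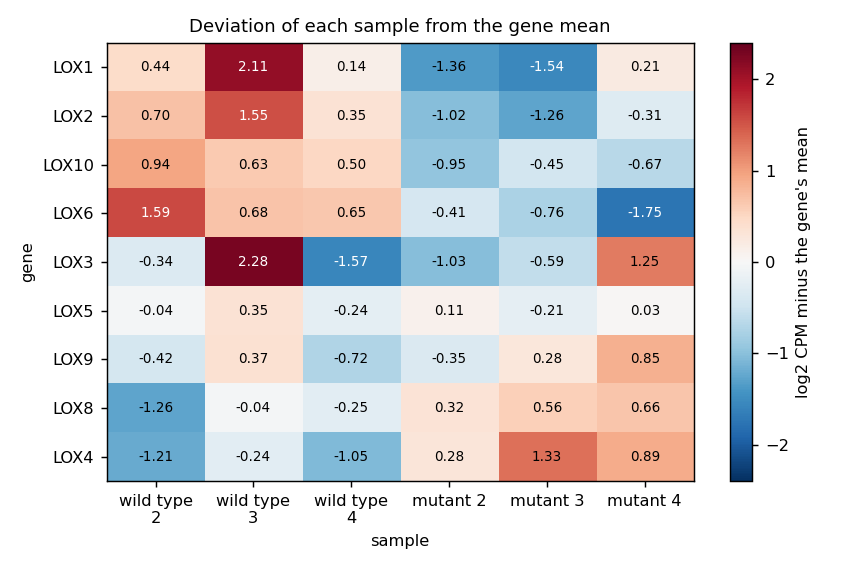
Log2 CPM of each gene (rows) in each sample (columns) minus the mean of the gene over the 6 samples, printed in each cell and coloured red above and blue below the mean. LOX1 and LOX2 share a pattern with wild type 3 at the top, at 2.11 and 1.55, while LOX4 and LOX8 are below their mean in all wild types and above it in all mutants.

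Patterns across the 6 samples differed widely among the genes. They were compared by the root mean square difference of log2 CPM after each gene was centred on its mean. Of the 36 pairs of members LOX1 and LOX2 were the most alike, at 0.39, and LOX4 and LOX6 the least, at 1.98. The part that reads shared between the near-identical copies LOX1 and LOX2 have in their likeness was not tested. LOX4 and LOX8 came next at 0.47, although one is a 9-LOX and the other a 13-LOX. LOX3 and LOX4, the other tandem pair, were far apart at 1.47. LOX10 was nearest to LOX2, at 0.54, and next to LOX6, at 0.58.

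Outside the family, the 2 tested genes most like LOX10 were Zm00001d009626 at 0.053 and Zm00001d029441 at 0.12. Zm00001d009626 had means of 2.47 CPM in the wild type and 0.92 CPM in the mutant, and Zm00001d029441 had 0.84 and 0.28 CPM. For LOX2 the nearest were Zm00001d015476 at 0.29, with 0.99 and 0.26 CPM, and Zm00001d044762 at 0.32, with 3.37 and 1.20 CPM. All 4 are weakly expressed, and the files give no names for them. Over 6 samples, close patterns arise among 22772 genes without any link.

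Levels between genes were compared in TPM (transcripts per 1000000 transcripts), which divides by transcript length. In mean TPM over the 6 samples the order was LOX10 (775 ± 347), LOX2 (580 ± 480), LOX1 (229 ± 243), LOX5 (134 ± 26.5), LOX4 (55.1 ± 43.4), LOX3 (37.2 ± 45.2), LOX9 (17.0 ± 7.84), LOX8 (16.9 ± 7.71) and LOX6 (13.4 ± 9.75), with SD and n = 6. By mean TPM LOX10 ranked 140 and LOX2 243 among the 28048 genes with TPM above 0. LOX6, the lowest member in this mean, ranked 11377. The order differed between genotypes. LOX6 was above LOX9 and LOX8 in the wild type, at 20.7 TPM beside 13.4 and 10.8, and below both in the mutant, at 6.04 beside 20.7 and 23.1. LOX3 was above LOX4 in the wild-type mean only, at 47.7 beside 22.8 TPM, and LOX5 was above LOX1 in the mutant mean only, at 137 beside 105 TPM.

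Neighbours in this order were compared within samples by an exact sign-flip permutation test, two-sided, adjusted over the 8 neighbouring pairs. None of the pairs reached an adjusted p of 0.05. With 6 samples a pair cannot reach it on its own, even at the smallest exact p, once adjusted over 8 pairs. The lack of calls is therefore no sign of equal levels. LOX2 exceeded LOX1 in 6 of 6 samples, by 1.52 on the log2 scale, with an exact p of 0.031, the smallest that 6 samples allow, and an adjusted p of 0.17. LOX10 exceeded LOX2 in 5 of 6 samples, the exception being wild type 3, and LOX5 exceeded LOX4 in 5 of 6, each with an exact adjusted p of 0.17. LOX9 and LOX8 were level, differing by 0.032 on the log2 scale with 3 of 6 samples each way. LOX8 exceeded LOX6 in all 3 mutant samples and lay below it in all 3 wild-type samples. In CPM, which does not divide by length, LOX2 exceeded LOX1 in only 4 of 6 samples. The deposited length of LOX2 averaged 745 bases in the wild type, beside 2529 for LOX1.

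**Figure D4:**
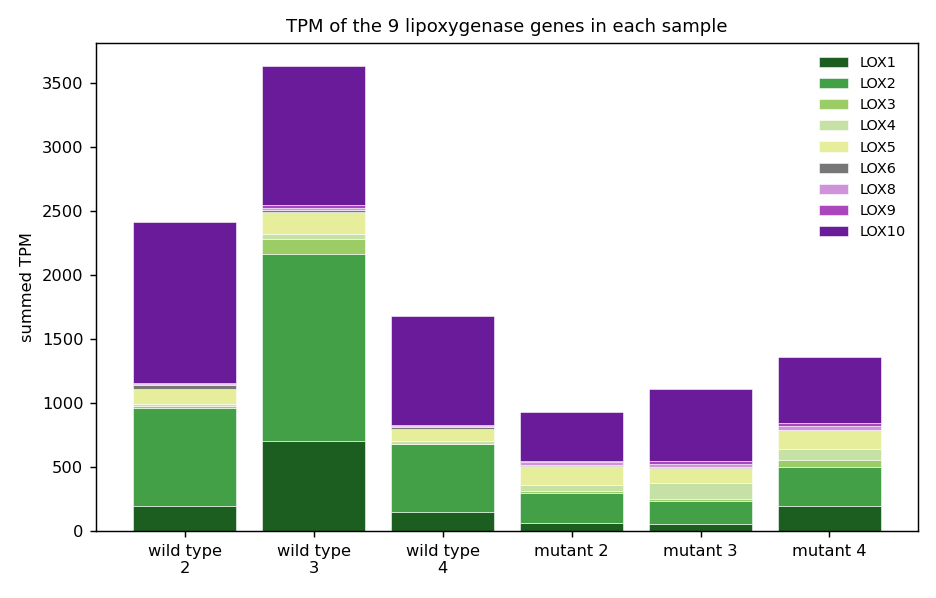
TPM of the 9 genes stacked for each sample (vertical axis from 0), with 9-LOX genes in greens, LOX6 in grey and 13-LOX genes in purples. LOX2 and LOX10 make up most of every wild-type bar, and the 3 mutant bars, 933 to 1366 TPM in all, are shorter than the 3 wild-type bars, 1682 to 3635 TPM.

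The summed TPM of the 9-LOX genes was 1113, 2496 and 799 in wild types 2, 3 and 4 and 512, 499 and 791 in the mutant samples. The genotypes were parted only by the gap between wild type 4 and mutant 4. The summed TPM of the 13-LOX genes was 1275, 1121 and 869 in the wild type and 413, 605 and 571 in the mutant, with a clear gap. In mean log2 the 9-LOX sum was 1.15 lower in the mutant (−1.15, pooled SD 0.65) and the 13-LOX sum 1.04 lower (−1.04, pooled SD 0.29). The difference between the classes, −0.11 with a pooled SD of 0.60, lay within the spread among samples. It was 0.32 without wild type 3 and 0.29 on summed CPM, so its sign is not settled.

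The 13-LOX sum follows its most abundant member, LOX10, and the 9-LOX sum follows LOX2, its highest in mean TPM, only in part. LOX10 held 97.7% ± 0.94 of the 13-LOX TPM in the wild type and 91.8% ± 1.31 in the mutant (SD, n = 3 each). LOX2 held 64.4% ± 5.29 of the 9-LOX TPM in the wild type and 40.9% ± 5.39 in the mutant. In mean TPM LOX2 was 3.76-fold lower in the mutant, and the 9-LOX sum 2.45-fold lower. When each gene of a class counts equally, on log2(TPM + 0.1), the mean change of the 13-LOX genes was 0.24 and that of the 9-LOX genes −0.29. LOX1, LOX2 and LOX10 together took 90.7% ± 1.21 of the TPM of all 9 genes in the wild type and 73.4% ± 1.30 in the mutant, so the other 6 genes took a larger share of a smaller total.

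In summed TPM neither class was the higher within samples. The 9-LOX sum exceeded the 13-LOX sum in 3 of 6 samples, wild type 3 and mutants 2 and 4. The mean log2 ratio was 0.22 ± 0.54 (SD, n = 6), with p = 0.44 by an exact two-sided sign-flip permutation test. Without LOX1 in the 9-LOX class the mean ratio was −0.083, with an exact p of 0.62 by the same test. This balance depends on the deposited lengths, which were 739 to 1050 bases for LOX2 and 2563 to 2795 for LOX10. Mean CPM over the 6 samples, not divided by length, was 2093 for LOX10. It was 558 for LOX1, 442 for LOX2 and 365 for LOX5.

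Average transcript length, deposited for each gene and run, depends on which transcript models of a gene take the reads. LOX10 averaged 2795, 2793 and 2769 bases in wild types 2, 3 and 4 and 2672, 2594 and 2563 bases in the mutant. The mutant lengths were all shorter, by 176 bases in the mean, and the runs of one sample differed by at most 83.6 bases. LOX10 was 2.61-fold lower in the mutant in CPM and 2.19-fold lower in TPM. Its log2 fold change of −1.38 was −1.27 with an offset for length and −1.13 on log2(TPM + 1), where the median of all genes was itself at 0.13.

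LOX2 averaged 739, 746 and 751 bases in the wild type and 765, 855 and 1050 bases in the mutant. Averaged over runs, the lengths lay above the wild-type range in all mutant samples, most in mutant 4, but mutant 2 only narrowly. The runs of one sample differed by up to 89.2 bases, and in run 1 alone mutant 2 was at 722 bases, below every wild type (732 to 756). The genotypes therefore overlapped for LOX2 in run 1, while those of LOX10 were apart in each run. LOX1, its neighbour, averaged 2492 to 2555 bases in the wild type and 2557 to 2564 in the mutant. In CPM, which does not divide by length, LOX2 exceeded LOX1 in 4 of 6 samples and was lower in wild type 3 and mutant 4, while in TPM it was higher in all 6. Averaged over runs, lengths did not overlap between genotypes for 3 of 9 genes, LOX2 included, beside 6.82% of 21744 genes (those at 1 TPM or more on average).

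**Figure D5:**
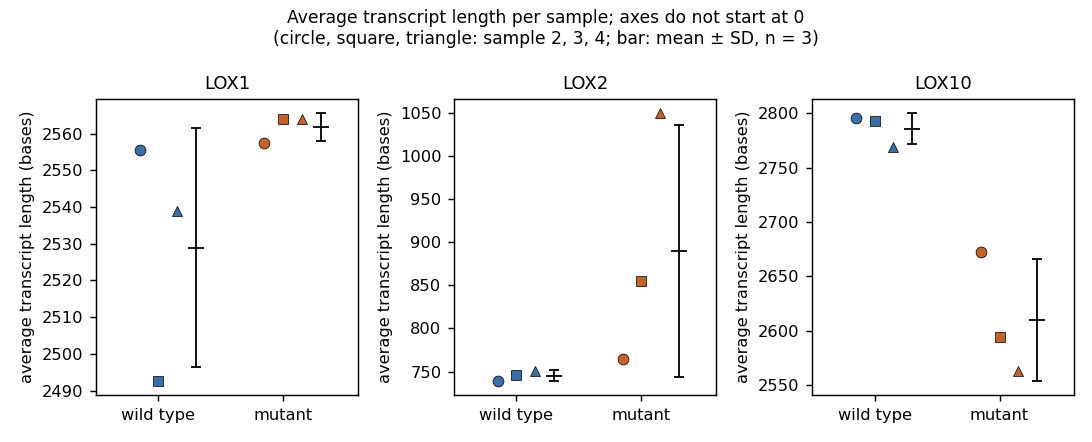
Average transcript length in bases of LOX1, LOX2 and LOX10 in the wild-type (blue) and mutant (orange) samples, with circles, squares and triangles for samples 2, 3 and 4 and black bars for the mean ± SD. The axes do not start at 0, and the scale differs between panels. LOX10 is shorter in every mutant sample than in any wild-type sample, while the LOX2 panel shows means of both runs, and in run 1 alone mutant 2, at 722 bases, lay below the wild types.

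The authors' deposited table of DESeq2 results per transcript lists 7216 transcripts at an adjusted p of up to 0.05, and 22 of them belong to 7 of the 9 genes. Set against the gene counts, 91.9% of 7058 transcripts differ in sign from mutant over wild type, and the fold change of the authors' deposited table is taken as wild type over mutant. Read so, the authors' deposited table has all 7 listed LOX2 transcripts, all 3 of LOX1, all 3 of LOX6 and the 1 of LOX10 as lower in the mutant. It has the 4 listed LOX4 transcripts, 2 of LOX8 and 2 of LOX5 as higher in the mutant, and lists none of LOX3 or LOX9.

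In the authors' deposited table LOX10 transcript T001 has a log2 fold change, wild type over mutant, of 1.49 (SE 0.13). For the most abundant listed LOX2 transcript, T007, the authors' deposited table gives 1.62 (SE 0.30), and for T012 of the same gene 2.35 (SE 0.28). LOX8 transcripts T001 and T002 are at −0.91 (SE 0.18) and −0.94 (SE 0.28) in the authors' deposited table. Among these genes the largest value in the authors' deposited table is for LOX5 transcript T003, at −9.25 (SE 2.73), a minor transcript with a mean of 56.5 normalized counts in a gene whose total did not part the genotypes. The table rests on the same libraries, and its treatment of the 2 runs of a sample is not stated in them.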

How the data were processed

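RNA sequencing of 6 maize samples, 3 per genotype and 2 runs each, was read from the deposited gene table. The submitters' processing notes name STAR, Salmon and DESeq2; their versions and roles, the build and any filters are not stated there. Per the file headers, the authors deposited estimated counts, TPM and average transcript length in bases for each gene and run. No such column was left unused (0). A second deposited table gives, per transcript, a mean normalized signal, a log2 fold change with its SE, a Wald score and p-values, per the file headers.

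Counts of both runs were summed and rounded, and TPM and lengths averaged. edgeR 4.0.16 (R 4.3.3, quasi-likelihood, TMM, expression filter by group, no covariate) was fitted on the whole table of 22772 genes, with Benjamini-Hochberg adjustment over all of them. SEs come from that fit and are approximate. CPM is TMM-scaled, and log2 CPM had a prior count of 2. Alternatives used DESeq2 1.42.0, limma 3.58.1 on log2(TPM + 1) and log2(TPM + 0.1), voom, other filters and scaling, single runs, a replicate block, a length offset and left-out samples. The edgeR, DESeq2 and limma tests and the test between runs were first tried on simulated data. That does not extend to the exact sign-flip tests or to the blocked and length-offset fits. P-values for genotypes, levels and classes measure the spread between samples, which nothing states to come from separate plantings. Those for run 2 against run 1 measure the spread between runs of the same samples.

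The genes, classes and lists were chosen with earlier results of these data known. All 9 genes are named, and for the gene of highest mean TPM in each class the 2 genes nearest in pattern. A list of further jasmonate genes and the tissue markers, fixed by symbol, were not analysed here, since 0 of the 39324 IDs were found in the RefSeq table. Run totals were 13123537 to 16520755 counts, and 3 counts correspond to 0.0938 to 0.110 CPM, a floor that covers counting error only.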

Additional observations from a re-analysis of the deposited data

How the results depend on the processing

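The 5 genes without overlap between genotypes, beside 19.3% of all tested genes, were also 5 on TPM, with median-of-ratios scaling and in either run alone. That share is for the main CPM values, and none is given for these alternatives. With 1 sample left out the genes without overlap were 5 to 6, beside 24% to 40.4% of all. They were 4 of 7 values when the tandem copies were summed, an alternative chosen after seeing the data and given without a share over all genes. At an adjusted p under 0.05, DESeq2 called 4 of the 9 genes (2.36% of all), and edgeR and limma called 0 in the other settings (0 to 0 with 1 sample left out). Over all genes these other settings called 0 as well, except for 1 gene on log2(TPM + 0.1). At unadjusted p under 0.05 the 6 genes (12.2% of all) became 4 to 6 with 1 sample left out (5.78% to 15.7% of all), the 4 without mutant 3 (14% of all). Over 17 alternatives LOX5 changed sign in 4 and LOX3 in 1, and the other 7 genes kept theirs. LOX10 moved to −1.13 on log2 TPM with either pseudocount. With members averaged in place of summed, the 9-LOX change moved from −1.15 to −0.29 and the 13-LOX change turned from −1.04 to 0.24. With 1 sample left out, these class changes ranged from −1.51 to −0.68 and from −1.19 to −0.87, and their difference from −0.35 to 0.32. The value of −0.68 came without wild type 3. The ratio of 9-LOX to 13-LOX within samples turned from 0.22 to −0.083 without LOX1. With the replicate block edgeR called 0 of all genes at an adjusted p under 0.05. At unadjusted p under 0.05 it had 5 of 9, beside 1790 of all 22772 genes. The class changes with this block were −1.15 and −1.04 by construction. Across genes, samples of the same number deviated from their group means with correlations of 0.22, −0.27 and −0.18. Such correlations cannot tell whether samples of the same number shared a planting or handling, which the labels do not state. Beyond the construction of each alternative, the cause was not tested. Depth was ample for all 9 genes, the lowest value being 7.61 CPM.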
